A study of Mus musculus with 4 samples.

Results

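S100a4, S100a6, S100a10, S100a11, Anxa1, Anxa2, Lgals1, Lgals3, Vim and Crip1 encode calcium-binding, membrane-binding, sugar-binding and cytoskeletal proteins that are commonly found at higher levels in effector and memory T cells than in naive ones. These 10 genes were taken by symbol from the 55401 genes of each table, and every symbol matched 1 row. They were measured by RNA sequencing in 4 libraries of CD3+CD8+ cells sorted from the lungs of C57BL/6J mice. The libraries came from IPF-LC mice given a CD4-depleting antibody, IPF-LC mice given an isotype antibody, LC mice given the depleting antibody and LC mice given the isotype antibody. The labels do not spell out IPF-LC or LC, and the age, sex and number of mice behind each library are not given in the sources used here. With 1 library per group no value has a replicate error, and no difference between a pair of libraries can be set against the spread between mice. Levels are given as TPM (transcripts-per-million, a level per transcript length, so that genes can be compared), and ratios as log2 of CPM (counts-per-million) after TMM scaling. The 95% intervals of ratios are exact binomial intervals for counting error only, since reads without molecular identifiers are not independent molecules.

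Most proteins of the S100 family are small calcium sensors that act as dimers and bind other proteins. Annexins bind membranes when calcium is present, and each of several S100 proteins has an annexin partner: S100A10 joins annexin A2 and S100A11 joins annexin A1. Galectins bind galactose-containing sugars on surface glycoproteins, where they can cross-link receptors of T cells. Vimentin forms intermediate filaments, and Crip1 is a small LIM-domain protein. Most of these genes are also transcribed in macrophages, fibroblasts and epithelial cells.

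The promoters of 4 of the genes are shown. S100a4 and Anxa1 were taken because they had the highest and the lowest depletion ratio in both models. S100a11 and Anxa2 were taken because they carry a motif that was not found in the other 6 matched promoters. The sequences run 5′ to 3′ on the gene's strand over 250 bases before and 50 bases after the start site, from RefSeq on build GRCm38.p6, an older build than that of the gene tables. RefSeq promoters were matched for 8 of the 10 genes; S100a10 and Lgals1 are named only. Capitals mark AP-1 motifs (TGANTCA) and Sp1 motifs (GGGCGG), searched on both strands, none of which overlap each other. S100a4 and Anxa1 hold neither. The S100a4 promoter lies at chr3:90603520-90603819 on the plus strand, that of S100a11 at chr3:93520246-93520545 on the plus strand, that of Anxa1 at chr19:20390622-20390921 on the minus strand and that of Anxa2 at chr9:69453433-69453732 on the plus strand.
S100a4: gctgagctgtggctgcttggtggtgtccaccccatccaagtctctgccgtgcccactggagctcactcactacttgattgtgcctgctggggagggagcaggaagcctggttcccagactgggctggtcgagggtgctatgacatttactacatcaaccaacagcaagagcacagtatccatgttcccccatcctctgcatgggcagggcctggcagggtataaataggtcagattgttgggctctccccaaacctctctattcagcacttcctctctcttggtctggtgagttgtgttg
S100a11: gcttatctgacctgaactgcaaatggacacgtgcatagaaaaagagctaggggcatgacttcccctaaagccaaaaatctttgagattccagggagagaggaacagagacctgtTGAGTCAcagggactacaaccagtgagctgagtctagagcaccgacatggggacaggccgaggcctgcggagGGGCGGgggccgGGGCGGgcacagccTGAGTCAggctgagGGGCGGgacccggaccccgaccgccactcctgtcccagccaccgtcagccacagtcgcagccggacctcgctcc
Anxa1: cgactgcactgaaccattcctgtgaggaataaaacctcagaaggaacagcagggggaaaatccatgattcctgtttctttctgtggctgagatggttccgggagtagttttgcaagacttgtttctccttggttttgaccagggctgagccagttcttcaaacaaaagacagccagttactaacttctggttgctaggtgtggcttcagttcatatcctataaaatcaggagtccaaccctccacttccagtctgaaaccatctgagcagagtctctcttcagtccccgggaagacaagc
Anxa2: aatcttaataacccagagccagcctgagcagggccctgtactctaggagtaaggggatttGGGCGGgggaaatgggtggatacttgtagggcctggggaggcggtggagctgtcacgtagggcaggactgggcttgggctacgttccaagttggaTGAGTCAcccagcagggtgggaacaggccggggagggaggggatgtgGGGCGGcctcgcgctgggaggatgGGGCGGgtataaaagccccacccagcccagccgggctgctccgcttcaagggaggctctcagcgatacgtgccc

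An AP-1 motif was found in 2 of the 8 promoters, those of S100a11 (2 matches) and Anxa2 (1 match), and in 7.81% of all 32851 RefSeq promoters of the same length. An Sp1 motif was found in 4 of the 8 (S100a11, Anxa2, Crip1 and Lgals3) and in 35.7% of all. The short KLF motif CACCC was found in 5 of the 8 and in 57.5% of all. A match describes the letters only. S100a4, S100a6, S100a10 and S100a11 all lie on mouse chromosome 3, where S100a4 and S100a6 are near neighbours.

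All 10 genes were detected in each library. Total counts were between 14946569 and 16217672 per library, mitochondrial genes took between 1.39 and 1.82% of them, and Cd8a, which encodes a chain of the CD8 coreceptor, was present at 179 to 260 TPM. The 16 CD8 T cell markers summed to 8166 CPM in CD4-depleted IPF-LC cells, 9088 CPM in isotype IPF-LC cells, 8686 CPM in CD4-depleted LC cells and 7658 CPM in isotype LC cells. Markers of other cells differed between the antibodies. Macrophage and monocyte markers, 20 in all, added up to 1240 CPM (3 at 0) in CD4-depleted IPF-LC cells and 3724 CPM (1 at 0) in isotype IPF-LC cells, and to 218 CPM (8 at 0, Adgre1 among them, and Csf1r at 2 counts) in CD4-depleted LC cells and 5155 CPM (0 at 0) in isotype LC cells. Fibroblast markers ranged from 52.5 to 596 CPM and endothelial markers from 142 to 406 CPM, with the isotype library above the depleted one in each model. Neutrophil markers added up to 4.62 CPM in CD4-depleted IPF-LC cells, 8.06 CPM in isotype IPF-LC cells, 4.27 CPM in CD4-depleted LC cells and 161 CPM in isotype LC cells. In the same order, lung epithelial markers added up to 13.4, 51.5, 16.3 and 112 CPM, and B cell and plasma cell markers to 306, 502, 352 and 399 CPM. Natural killer cell markers added up to 188 CPM in CD4-depleted IPF-LC cells against 255 CPM in isotype IPF-LC cells, and to 95.2 CPM in CD4-depleted LC cells against 430 CPM in isotype LC cells. The 12 regulatory T cell markers summed to 776 CPM in each CD4-depleted library, against 344 CPM in isotype IPF-LC cells and 530 CPM in isotype LC cells. Fewer cells of a type and less RNA per cell cannot be told apart in such pooled RNA.

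Crip1 was the most abundant of the 10 transcripts per length in every library, at 1853 TPM in CD4-depleted IPF-LC cells and 1632 TPM in isotype IPF-LC cells, and at 2331 TPM in CD4-depleted LC cells and 1355 TPM in isotype LC cells. S100a10, S100a11 and Lgals1 formed the next tier by mean TPM (707, 759 and 719 over the 4 libraries), followed by Anxa2, S100a6, Lgals3 and Vim at 332, 324, 313 and 299. S100a4 and Anxa1 were the least abundant, with means of 84.3 and 63.0 TPM, and they were also the most variable: the highest library stood 4.79 times above the lowest for S100a4 and 4.97 times for Anxa1. S100a11 was the steadiest, at 1.24 times. Of the 10 genes, 6 had their highest CPM in CD4-depleted LC cells and 4 (Anxa1, Anxa2, Lgals3 and Vim) in isotype LC cells. None was highest in an IPF-LC library. The share of all genes with their highest level in an LC library was not counted, so these counts have no baseline.

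**Figure D1:**
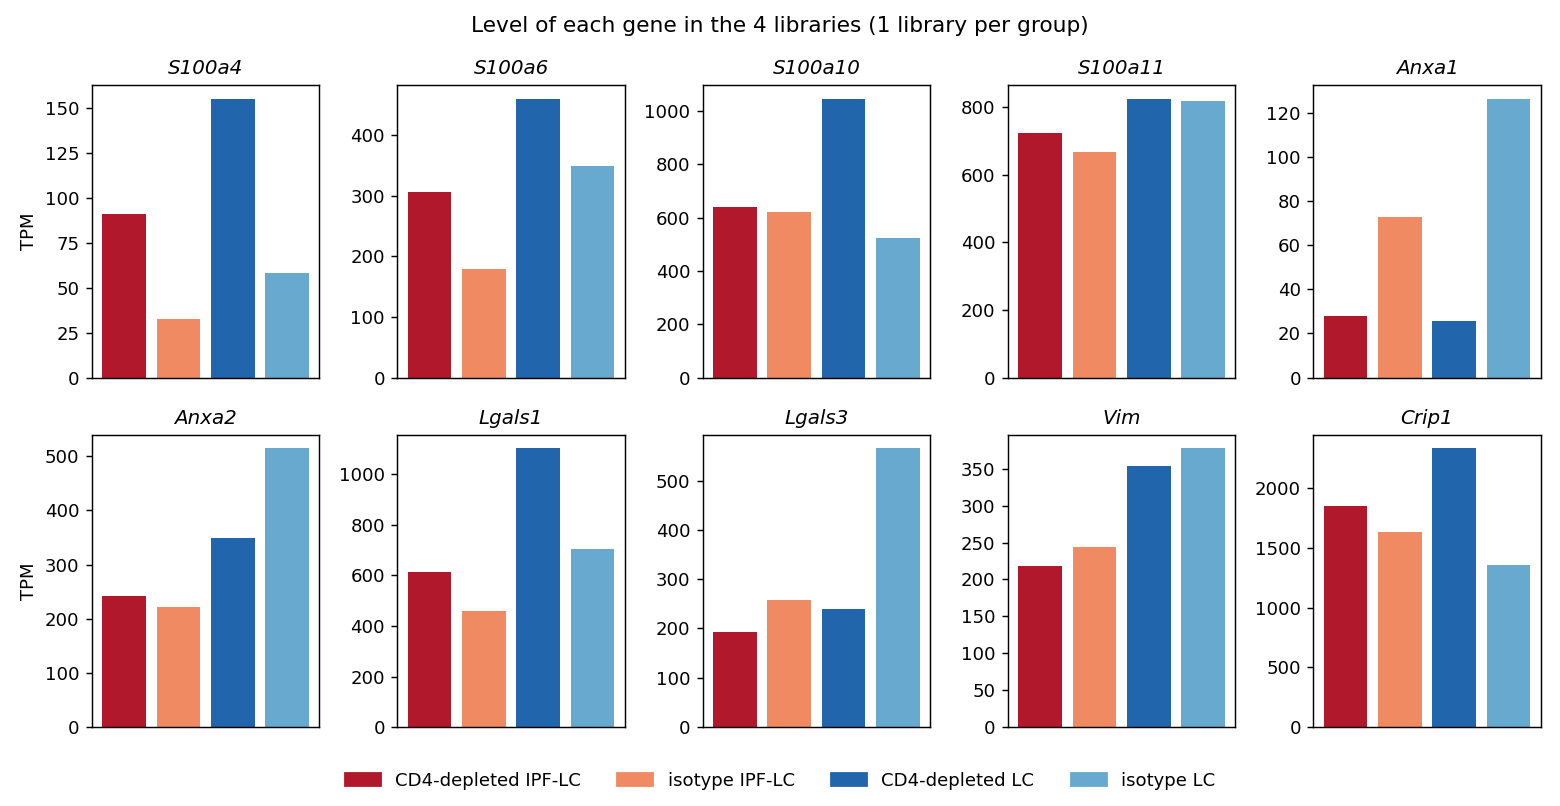
Level of each of the 10 genes in TPM (vertical axis, a linear scale from 0 that differs between panels), 1 bar for each of the 4 libraries, with no error bars because each group has 1 library. The tallest bar is a CD4-depleted LC or isotype LC bar in every panel.

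The first question was how these genes stood after CD4 depletion in IPF-LC mice. S100a4 and S100a6 were higher in the depleted library and Lgals1 was modestly higher. Anxa1 was lower, Lgals3 was modestly lower, and the others differed less. S100a4, which binds non-muscle myosin and promotes cell motility, was at 91.0 TPM (224 counts) in CD4-depleted IPF-LC cells against 32.4 TPM (78 counts) in isotype IPF-LC cells. Its log2 ratio was 1.52 (1.15 to 1.92), a 2.87-fold difference. S100a6, also called calcyclin, was at 306 TPM in the depleted library and 179 TPM in the isotype library, with a log2 ratio of 0.80 (0.64 to 0.96). The remaining S100 genes differed little: S100a10 had a ratio of 0.09 (0.01 to 0.16) and S100a11 one of 0.16 (0.06 to 0.26).

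Anxa1, whose product signals through formyl peptide receptors and dampens inflammation, was at 28.0 TPM (456 counts) in CD4-depleted IPF-LC cells against 72.6 TPM (1130 counts) in isotype IPF-LC cells. The ratio was -1.30 (-1.47 to -1.15), which is 2.47-fold lower in the depleted library. Anxa2, which carries S100A10 to the cell surface, was at 243 TPM in the depleted library and 221 TPM in the isotype library (0.22, 0.14 to 0.29). The galectins diverged. Lgals1, a secreted galectin that can trigger T cell death, was at 612 TPM in the depleted library and 458 TPM in the isotype library (0.46, 0.39 to 0.53), while Lgals3, a galectin that can restrain T cell receptor movement, was at 193 TPM in the depleted library and 257 TPM in the isotype library (-0.32, -0.41 to -0.24). Vim had a ratio of -0.07 (-0.13 to 0.001), not distinguishable from no difference at this depth and 0.088 when scaled to the CD8 T cell markers. Crip1 had a ratio of 0.21 (0.15 to 0.28).

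In this comparison 1 of the 10 genes, S100a4, was at least 2-fold higher, as were 4.08% of the 8433 genes averaging 10 CPM or more, a minimum that all 10 passed. S100a4 is close to that minimum, with a mean of 12.8 CPM, and passed it only through the depleted libraries. It was at 14.4 CPM in CD4-depleted IPF-LC cells and 23.9 CPM in CD4-depleted LC cells. In isotype IPF-LC and isotype LC cells it was at 4.99 and 8.02 CPM, so its calls as higher partly follow from the minimum. Likewise 1 of the 10, Anxa1, was at least 2-fold lower, against 6.02% of all genes. At 1.5-fold, 2 were higher (13% of all genes) and 1 lower (15%). Ratios were above 0 for 7 of the 10 and for 50.1% of all genes, and below 0 for 3 of the 10 and 49.9%, and the median ratio was 0.19 against 0.002 for all genes. Scaled to the summed CD8 T cell markers, which shifts the median of all genes by 0.15, the split of all genes past 2-fold was 528 higher and 389 lower, against 344 and 508 with TMM scaling.

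The same question in LC mice gave larger differences for several of the genes. S100a4 was at 155 TPM (375 counts) in CD4-depleted LC cells against 58.5 TPM (124 counts) in isotype LC cells, a log2 ratio of 1.57 (1.28 to 1.88). S100a10, the annexin A2 partner that also binds plasminogen, was at 1045 TPM in the depleted library and 523 TPM in the isotype library, with a ratio of 1.08 (1.01 to 1.16). On the deposited TPM that ratio was 0.998 and with CD8 marker scaling 0.90, both just short of 2-fold. S100a6 was at 460 TPM in the depleted library and 349 TPM in the isotype library (0.50, 0.37 to 0.62). S100a11 had a ratio of 0.10 (0.01 to 0.18), which turned to -0.086 when scaled to the CD8 T cell markers.

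Lower in the depleted LC library were Anxa1, Lgals3 and, by less, Anxa2. Anxa1 was at 25.4 TPM (406 counts) in CD4-depleted LC cells against 126 TPM (1860 counts) in isotype LC cells, a ratio of -2.21 (-2.37 to -2.06) or 4.64-fold lower. Lgals3 was at 239 TPM in the depleted library and 565 TPM in the isotype library (-1.17, -1.24 to -1.09). Anxa2 was at 348 TPM in the depleted library and 514 TPM in the isotype library (-0.47, -0.53 to -0.42), the reverse of its direction in IPF-LC. Higher in the depleted library were Lgals1, at 1103 TPM against 704 TPM in the isotype library (0.73, 0.68 to 0.79), and Crip1 (0.86, 0.79 to 0.93). Vim, at 354 TPM in the depleted library and 378 TPM in the isotype library, had a ratio of -0.08 (-0.14 to -0.03).

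Of the 10 genes, 2 (S100a4 and S100a10) were higher by 2-fold or more after depletion in LC, as were 2.59% of all genes tested. S100a4 was at 8.02 CPM in isotype LC cells, below the 10 CPM that its mean had to reach. Another 2 (Anxa1 and Lgals3) were at least 2-fold lower, as were 5.85%. At 1.5-fold, 4 were higher (9.28% of all genes) and 2 lower (11%). Ratios were above 0 for 6 of the 10 and for 56.1% of all genes, and below 0 for 4 of the 10 and 43.9%. The median ratio was 0.30 against 0.06 for all genes. The split of all genes past 2-fold was 134 higher and 629 lower with CD8 marker scaling, which shifts the median by -0.18, against 218 and 493 with TMM scaling.

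**Figure D2:**
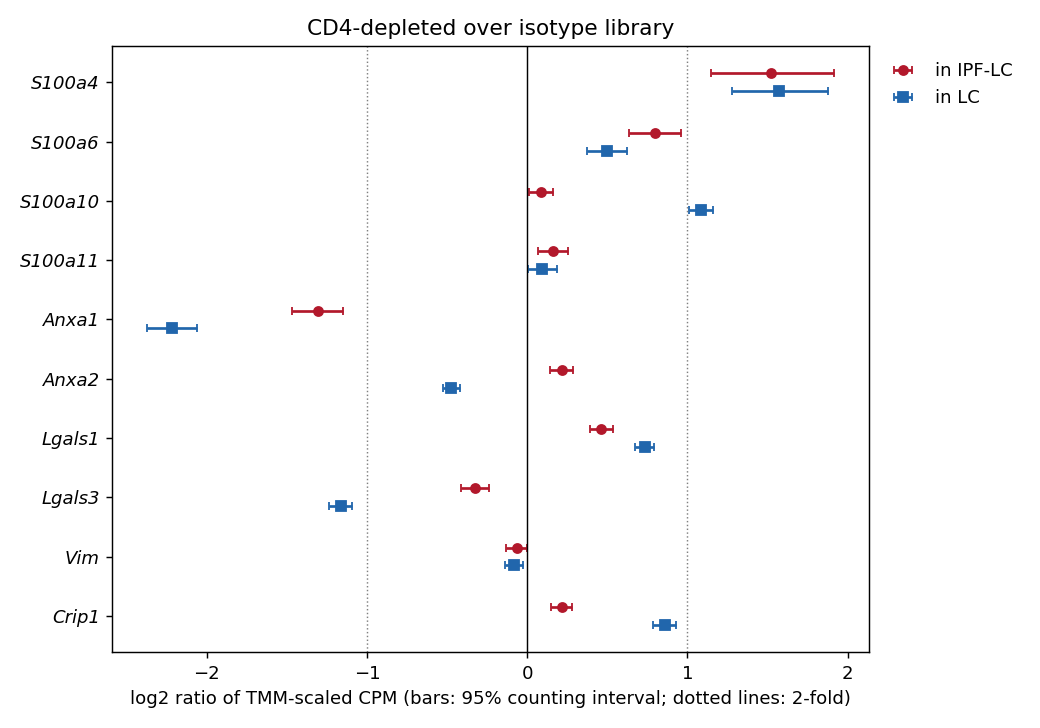
Log2 ratio of TMM-scaled CPM of the CD4-depleted over the isotype library (horizontal axis) for each of the 10 genes, in IPF-LC (circles) and LC (squares), with 95% counting intervals as bars and dotted lines at 2-fold. S100a4 lies near 1.5 in both models, Anxa1 is lowest in both at -1.30 and -2.21, and Anxa2 lies on opposite sides of 0.

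No library enters both depletion comparisons. Ratios were above 0 in both models for 6 of the 10 genes (S100a4, S100a6, S100a10, S100a11, Lgals1 and Crip1), as for 32.0% of all genes, although S100a11 turned in LC with CD8 marker scaling. They were below 0 in both for 3 (Anxa1, Lgals3 and Vim), as for 25.8% of all genes, although Vim turned in IPF-LC with CD8 marker scaling. S100a4 was the 1 member at least 2-fold higher in both models (0.605% of all genes) and Anxa1 the 1 at least 2-fold lower in both (2.77%). S100a4 passed the minimum level only through the depleted libraries. Anxa2 alone had opposite signs, as did 42.3% of all genes. The difference between the models, IPF-LC minus LC, was -0.05 (-0.54 to 0.45) for S100a4, where a negative value means a smaller ratio in IPF-LC, and this sign turned with TPM and with CD8 marker scaling. The ratio of S100a10 was smaller in IPF-LC by a difference of -0.996 (-1.10 to -0.89) and that of Crip1 by one of -0.64 (-0.74 to -0.55). For Anxa1, Lgals3 and Anxa2 the difference was 0.91 (0.69 to 1.14), 0.84 (0.73 to 0.95) and 0.69 (0.60 to 0.78), each positive because the LC ratio was the lower one. It was 0.30 (0.10 to 0.50) for S100a6 and -0.27 (-0.36 to -0.18) for Lgals1, whose sign turned with CD8 marker scaling. In all, the counting interval of the difference lay above 0 for 4 of the genes, below 0 for 3 and included 0 for S100a4, S100a11 and Vim. Such intervals cover counting error only. The share of all genes with an interval clear of 0 was not counted. Differences of at least 2-fold between the models were found for 0 of the 10 genes, against 8.05% of all genes upward and 6.33% downward. With CD8 marker scaling 3 of the 10 passed 2-fold upward, Anxa1 (1.247), Lgals3 (1.18) and Anxa2 (1.03), as did 1233 of all genes against 679 with TMM scaling, while 229 passed downward against 534. With library totals S100a10 passed downward (-1.01).

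Marker levels stood beside these ratios as follows. In IPF-LC 18 of the 20 macrophage and monocyte markers were at least 2-fold lower after depletion and in LC all 20 were, as Anxa1 and Lgals3 were lower in both. Among the 7 natural killer cell markers that averaged 10 CPM or more, 4 were lower by 2-fold or more after depletion in IPF-LC (6.02% of all genes). In LC 6 of the 7 were (5.85% of all genes). The part of either marker list in the lower Anxa1 and Lgals3 levels was not tested. In CD4-depleted LC cells, where macrophage and monocyte markers were lowest, Lgals3 was at 145 CPM and Anxa1 at 25.9 CPM. Of the 12 regulatory T cell markers, 10 had a ratio above 0 after depletion in IPF-LC and 11 in LC. Below 0 were Izumo1r (63 counts in CD4-depleted IPF-LC cells against 191 in isotype IPF-LC cells, and 131 in CD4-depleted LC cells against 134 in isotype LC cells) and, in IPF-LC, Gpr83 (72 counts in CD4-depleted cells against 126 in isotype cells). Foxp3, the transcription factor of regulatory T cells, was at 29.3 CPM in CD4-depleted IPF-LC cells against 1.47 CPM in isotype IPF-LC cells and at 32.5 CPM in CD4-depleted LC cells against 3.88 CPM in isotype LC cells. Their part in the higher S100a4, S100a6 and Lgals1 levels was not tested.

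**Figure D3:**
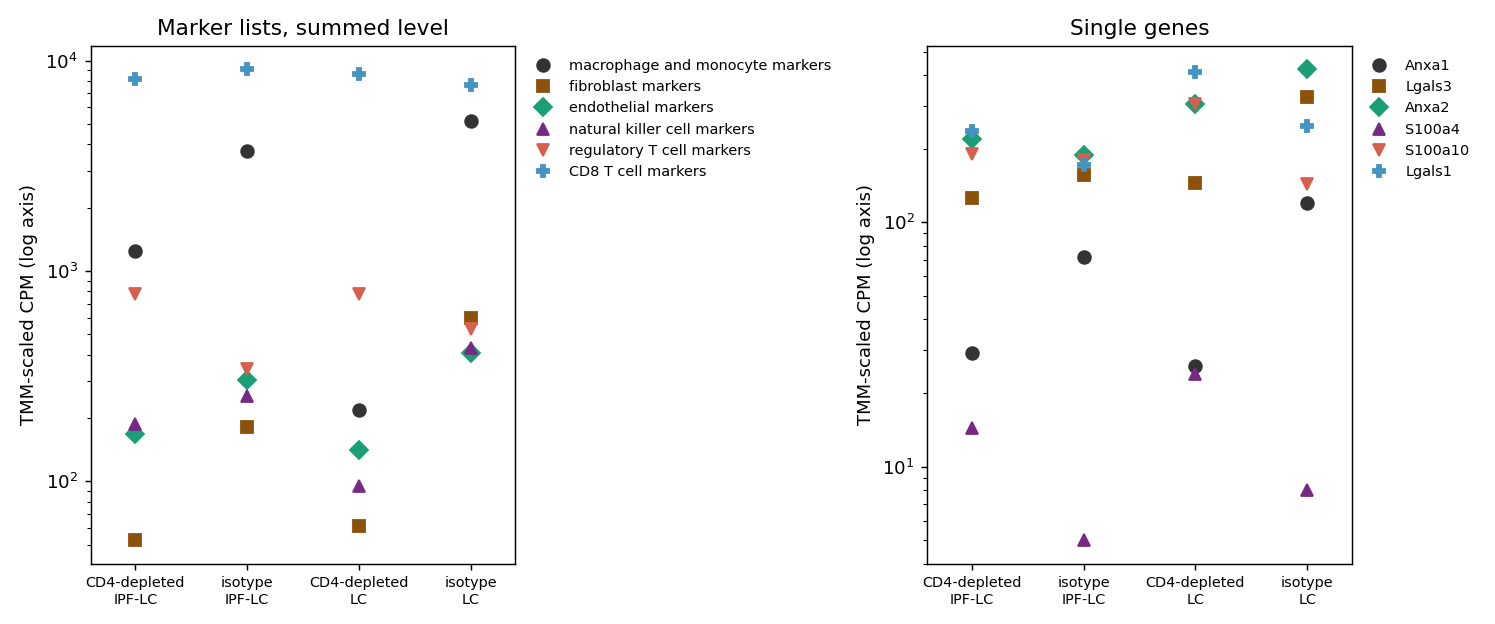
Summed level of 6 marker lists (left) and level of 6 single genes (right) in TMM-scaled CPM on a log axis, 1 point per library. Macrophage and monocyte markers are lowest in CD4-depleted LC cells at 218 CPM and highest in isotype LC cells at 5155 CPM, and CD8 T cell markers stay between 7658 and 9088 CPM.

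The second question was how IPF-LC differed from LC under the same antibody. Most of the 10 genes were lower in IPF-LC with either antibody, and these comparisons share no library with each other. With isotype antibody, 8 of the 10 ratios were below 0 (47.5% of all genes), while 2 were above 0 (52.5% of all genes). All 8 lower ratios had counting intervals clear of 0, a property not counted over all genes. Anxa2 was at 221 TPM in isotype IPF-LC cells and 514 TPM in isotype LC cells, a ratio of -1.17 (-1.23 to -1.10). Lgals3 was at 257 TPM in isotype IPF-LC cells and 565 TPM in isotype LC cells (-1.06, -1.13 to -0.99). These were the 2 genes at least 2-fold lower, as were 4.1% of all genes, and 0 were at least 2-fold higher (1.91% of all genes). S100a6 (-0.83), Anxa1 (-0.74), Vim (-0.71), S100a4 (-0.68, -1.11 to -0.26), Lgals1 (-0.54) and S100a11 (-0.22) followed. Crip1 (0.38, 0.31 to 0.46) and S100a10 (0.32, 0.24 to 0.40) went the other way. At 1.5-fold, 6 were lower (10.2% of all genes) and 0 higher (8.44%). The median of the 10 genes was -0.69 against 0.02 for all genes. With CD8 marker scaling the median of all genes shifted by -0.25 and their split past 2-fold was 52 higher and 557 lower, against 161 and 346 with TMM scaling. In the same comparison 12 of the 20 macrophage and monocyte markers were at least 2-fold lower in IPF-LC with no minimum level. Among the 14 that averaged 10 CPM or more, 8 were lower by that much and 0 higher. The part of these markers was not tested.

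After CD4 depletion, 9 of the 10 ratios of IPF-LC over LC were below 0 (50% of all genes), with a median of -0.50 against 0.0002 for all genes. Lgals1 had the lowest, at 612 TPM in CD4-depleted IPF-LC cells and 1103 TPM in CD4-depleted LC cells (-0.81, -0.87 to -0.75). S100a4 (-0.73, -0.98 to -0.49), Vim (-0.69, -0.75 to -0.63), S100a10 (-0.68, -0.74 to -0.61) and S100a6 (-0.53, -0.66 to -0.41) came next. Anxa2 had a ratio of -0.48 (-0.54 to -0.41), Crip1 one of -0.26, Lgals3 one of -0.22 and S100a11 one of -0.16. Anxa1, at 28.0 TPM in CD4-depleted IPF-LC cells and 25.4 TPM in CD4-depleted LC cells, did not differ beyond counting error (0.18, -0.02 to 0.37). At 2-fold, 0 of the 10 were higher (3.3% of all genes) and 0 lower (2.57%), while at 1.5-fold 4 were lower (8.6%) and 0 higher (9.14%). The split of all genes past 2-fold was 340 higher and 162 lower with CD8 marker scaling, against 278 and 217 with TMM scaling. Here 15 of the 20 macrophage and monocyte markers were at least 2-fold higher in IPF-LC and 0 lower, with no minimum level. Among the 14 that averaged 10 CPM or more, 12 were higher by that much and 0 lower. The part of these markers was not tested.

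**Figure D4:**
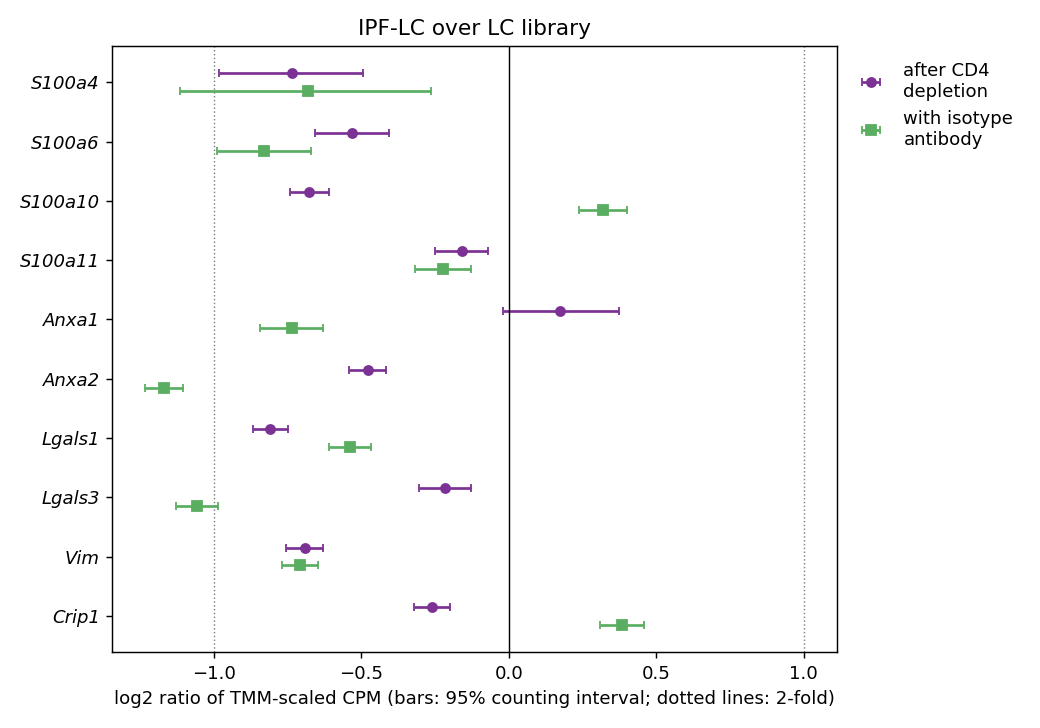
Log2 ratio of TMM-scaled CPM of the IPF-LC over the LC library (horizontal axis) for each of the 10 genes, after CD4 depletion (circles) and with isotype antibody (squares), with 95% counting intervals as bars and dotted lines at 2-fold. Points lie left of 0 for 9 genes after depletion and for 8 with isotype antibody.

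Ratios were below 0 in both IPF-LC over LC comparisons for 7 of the 10 genes (S100a4, S100a6, S100a11, Anxa2, Lgals1, Lgals3 and Vim), as for 21.0% of all genes. S100a10 and Crip1 had opposite directions under the antibodies. They were a little higher in IPF-LC with isotype antibody and lower in IPF-LC after depletion. Their profiles over the 4 libraries were also among the closest of any pair, with a root mean square difference of 0.15 on the log2 scale after centring, close to the 0.14 of S100a6 and Lgals1. The widest pair was S100a4 and Anxa1 at 1.68.

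Partners did not keep a fixed ratio. S100a10 over Anxa2, whose products form 1 complex, was 2.63 by TPM in CD4-depleted IPF-LC cells and 2.81 in isotype IPF-LC cells, and 3.00 in CD4-depleted LC cells against 1.02 in isotype LC cells. The isotype LC library thus stood apart from the other 3. S100a11 over Anxa1 was 25.9 in CD4-depleted IPF-LC cells and 9.19 in isotype IPF-LC cells, and 32.5 in CD4-depleted LC cells and 6.48 in isotype LC cells. This followed Anxa1, as S100a11 was nearly level. Lgals1 over Lgals3 was 3.17 in CD4-depleted IPF-LC cells and 1.78 in isotype IPF-LC cells, and 4.61 in CD4-depleted LC cells and 1.24 in isotype LC cells. Both of these ratios were higher in the depleted library of each model.

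**Figure D5:**
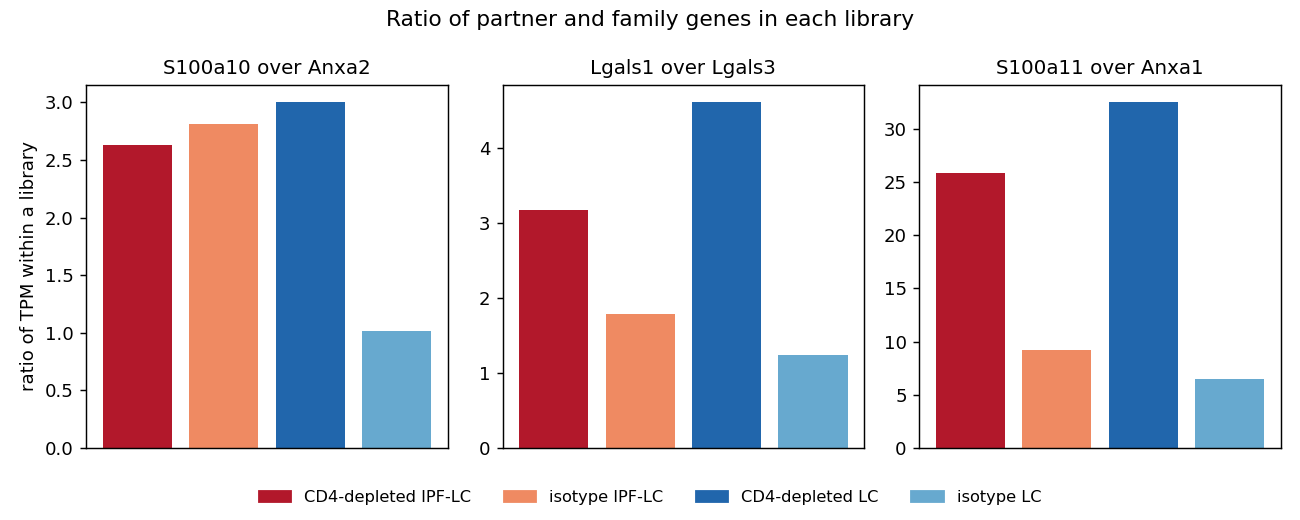
Ratio of TPM between partner or family genes within each library (vertical axis, linear from 0, scale differs between panels), 1 bar per library. S100a10 over Anxa2 is between 2.63 and 3.00 in 3 libraries and 1.02 in isotype LC cells.

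To test over all 4 libraries at once, edgeR's quasi-likelihood method was fitted to 13050 genes with additive terms for model and antibody, which leaves 1 residual degree of freedom. That 1 degree of freedom is the difference between the models in the antibody ratio. The p-values and SEs of this design therefore do not measure the spread between mice. Each edgeR SE is the size of the log2 change over the square root of the test's F statistic. No member was called for the antibody term at a Benjamini-Hochberg adjusted p under 0.05, nor was any gene (0.0% called). Unadjusted, 5 of the 10 genes (S100a4, S100a6, Lgals1, Anxa1 and Lgals3) had a p under 0.05, as did 10% of all genes. Anxa1 had the smallest, with a log2 change of -1.78 (SE 0.307, adjusted p = 0.249 in edgeR, lower in 2 of 2 models). DESeq2 in the same design called Anxa1 (adjusted p = 0.00037, 3.69% of all genes called), as did edgeR when restricted to genes averaging 10 CPM or more (adjusted p = 0.0184, 1.59% called). Its adjusted p over all 5 alternatives lay between 0.00037 and 0.397. S100a4 had a log2 change of 1.53 (SE 0.453, edgeR adjusted p = 0.402, and 0.22 to 0.587 over the alternatives).

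For the model term the same edgeR fit called 0 genes (0.0%). Unadjusted, 5 of the 10 genes had a p under 0.05, as did 2.04% of all genes, and all 5 were lower in IPF-LC. These were Anxa2 (-0.85, SE 0.23), Vim (-0.72, SE 0.167), S100a6 (-0.70, SE 0.233), Lgals1 (-0.70, SE 0.175) and Lgals3 (-0.66, SE 0.254), each at an edgeR adjusted p of 1.00. DESeq2 called 5 genes (0.0383%) and none of the 10.

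The rest of each family behaved in its own way. Among 13 other S100 and S100-related genes, 2 averaged 10 CPM or more, and neither was 2-fold apart after depletion in either model. S100a13, which takes part in unconventional protein secretion, had ratios of -0.11 in IPF-LC and 0.21 in LC, and S100pbp, a binding protein of the family, -0.25 and -0.01. Of 10 other annexins, 6 passed the minimum. Among these, 2 (Anxa4 and Anxa3) were at least 2-fold lower after depletion in both models, as were 2.77% of all genes. Anxa4 stood at 10.6 TPM in CD4-depleted IPF-LC cells and 25.4 TPM in isotype IPF-LC cells (-1.17, -1.41 to -0.95), and at 8.39 TPM in CD4-depleted LC cells and 36.0 TPM in isotype LC cells (-2.04, -2.30 to -1.79). Anxa3, named after its values were seen, had ratios of -3.54 and -3.17. It had 23 counts in CD4-depleted IPF-LC cells against 274 in isotype IPF-LC cells, and 33 in CD4-depleted LC cells against 297 in isotype LC cells. Its mean of 10.1 CPM passed the minimum only through the isotype libraries, so its call as lower partly follows from the minimum. Anxa6, with the highest mean TPM of the annexins, had ratios of -0.06 in IPF-LC and 0.20 in LC. Anxa5, which binds phosphatidylserine, had -0.19 and -0.51, Anxa7 -0.56 and 0.22, and Anxa11 -0.10 and 0.07.

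Of 7 other galectin genes in the tables, 3 passed the minimum. Lgals9, a ligand reported for the inhibitory receptor TIM-3, had ratios of -0.30 in IPF-LC and -0.36 in LC, and Lgals8 had -0.60 and -0.29. Lgalsl, a galectin-like gene, was at 6.97 TPM in CD4-depleted IPF-LC cells and 3.08 TPM in isotype IPF-LC cells, with a CPM ratio of 1.70 (1.34 to 2.09), and had a ratio of 0.03 in LC.

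Among 31 partner and cytoskeleton genes, 27 passed the minimum. After depletion in IPF-LC 2 of the 27 were at least 2-fold higher (Lmnb1 and Plat), against 4.08% of all genes, and 0 lower, against 6.02%. In LC 0 were higher, against 2.59% of all genes, and 4 lower (Plaur, Plat, Vcl and Cd44), against 5.85%. Ahnak, a large scaffold protein bound by the S100A10 and annexin A2 complex, had ratios of -0.12 in IPF-LC and -0.15 in LC. Itgb1, the integrin beta-1 chain, stood at 303 TPM in CD4-depleted IPF-LC cells and 180 TPM in isotype IPF-LC cells (0.82), and had a ratio of 0.43 in LC. Capg, an actin-capping protein, had 0.74 in IPF-LC and 0.41 in LC. Cd44, an adhesion receptor of antigen-experienced T cells, had 0.09 in IPF-LC and -1.04 in LC, Lmna 0.14 and -0.77, and Emp3 -0.11 and 0.06. Plat, the tissue plasminogen activator, went both ways, at 1.32 in IPF-LC and -1.70 in LC, while Plaur, the urokinase receptor, had -0.89 and -2.23. The annexin A1 receptors Fpr1 and Fpr2 were at 2 counts or fewer after depletion. Fpr1 had 2 counts in CD4-depleted IPF-LC cells against 257 in isotype IPF-LC cells, and 0 counts in CD4-depleted LC cells against 171 in isotype LC cells, at least 57.8-fold lower over a floor of 3 counts per library. Fpr2 had 0 counts in both depleted libraries, against 16 in isotype IPF-LC cells and 54 in isotype LC cells. Both receptors are typical of myeloid cells, whose markers were lower in the same libraries, and the part of those cells was not tested.

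The naive and central memory genes, which usually stand opposite to the 10 genes, showed no common direction with depletion, with medians of -0.24 in IPF-LC and 0.33 in LC over 15 genes, against 0.002 and 0.06 for all genes. Ratios were above 0 for 6 of the 15 in IPF-LC (50.1% of all genes) and for 12 in LC (56.1%). Ccr7, a homing receptor of naive and central memory T cells, had ratios of -0.24 in IPF-LC and -0.002 in LC. For IPF-LC over LC with isotype antibody, 13 of the 15 were above 0 (52.5% of all genes), with a median of 0.38, where the 10 genes had -0.69. After CD4 depletion 8 of the 15 were above 0 (50% of all genes), with a median of 0.01.

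The genes whose profile over the 4 libraries lay nearest to the mean profile of the 10, among 4182 other genes averaging 50 CPM or more, were Utp4, Zfyve27, Gosr1, Bsdc1 and Ints11, with root mean square differences of 0.02 to 0.06 on the log2 scale. The mean profile was itself shallow, from -0.33 in isotype IPF-LC cells to 0.29 in CD4-depleted LC cells after centring, and S100a4 and Anxa1 lay 0.72 and 0.97 away from it. Nearest to Lgals3 were Klrc1 (0.11), which encodes the NKG2A receptor chain, Cst3 (0.16) and Asah1 (0.17). Some close matches are bound to occur among 4182 genes compared over 4 single libraries. Shared regulation was not tested.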

How the data were processed

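The 4 libraries were assigned to groups by their labels. RNA was made into libraries with SMART-Seq and NEBNext kits, per the labels' protocols. MultiQC 1.25.2, RSEM 1.3.3, STAR 2.7.11a and fastp 0.23.4 are listed in the submitters' processing notes, without roles, with build GRCm39; the annotation release is not given in the sources used here. The expected counts deposited by the authors are estimated reads per gene, not normalised, of which 5.49 to 5.89% are not whole numbers, and they were rounded. The TPM values deposited by the authors are scaled to the same sum in each library and account for effective gene length. Reads of the 10 genes were whole except for 0.0387% of those of S100a11, and its listed pseudogene and those of Lgals1 had 0 counts. Whether counting used strand is not given in the sources used here. The tables name no batch, run or date.

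Log2 ratios used TMM-scaled CPM with a prior count of 0.5 (factors 0.961, 1.01, 0.994 and 1.03 for CD4-depleted IPF-LC, isotype IPF-LC, CD4-depleted LC and isotype LC). Calls were made at 2-fold among the 8433 genes averaging 10 CPM or more. edgeR 4.0.16, DESeq2 1.42.0 and limma 3.58.1 fitted the additive model in R 4.3.3 (two-sided, all genes adjusted together by Benjamini-Hochberg), and intervals came from scipy 1.17.1. The interval of a difference between ratios is the exact conditional interval of the odds ratio. The edgeR fit and the intervals were tested on simulated data. Alternatives were DESeq2 size factors, library totals, the sum of 16 CD8 T cell markers as the scale, TPM with a pseudocount of 0.1, a prior count of 2, minimum means of 1 and 50 CPM, a 1.5-fold rule and whole intervals beyond 2-fold. The genes and lists were chosen with earlier results of these data known. Named genes were all 10 members, the most abundant other family members above that minimum, a preset group of partners with the 4 that changed most, preset marker genes and the genes nearest in profile. No protein sequence was used here.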

Additional observations from a re-analysis of the deposited data

Results flagged for a closer look

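Anxa2 had depletion ratios of opposite sign in the 2 models, with both counting intervals clear of 0. The log2 ratio was 0.22 (0.14 to 0.29) in IPF-LC and -0.47 (-0.53 to -0.42) in LC, a difference of 0.69 (0.60 to 0.78). It rests on 1 library per group, so the difference was not tested against variation between mice. Its level was 243 TPM in CD4-depleted IPF-LC cells, 221 TPM in isotype IPF-LC cells, 348 TPM in CD4-depleted LC cells and 514 TPM in isotype LC cells. Opposite signs were found for 42.3% of all genes tested, without regard to counting error.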

How the results depend on the processing

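Among the ratios of single members, DESeq2 size factors and a prior count of 2 moved none of the 50 and 40 values beyond its counting interval. Beyond it and with the same sign, library totals moved 7 of 50, TPM 14 and CD8 marker scaling 37, and besides these the sign turned for 1, 2 and 4 values. Signs turned for Vim in IPF-LC (0.088) and S100a11 in LC (-0.086) with CD8 marker scaling. The difference of depletion ratios turned for S100a4 (0.28 with CD8 marker scaling, 0.077 with TPM), Lgals1 (0.065 with CD8 marker scaling) and Vim (-0.0026 with library totals, -0.071 with TPM). With CD8 marker scaling the members' median became 0.34 for depletion in IPF-LC, 0.12 for depletion in LC, -0.94 for IPF-LC over LC with isotype antibody and 0.38 (0.04 with TMM) for the difference of depletion ratios. For that difference, 3 members (0 with TMM) passed 2-fold upward with CD8 marker scaling and 1 downward with library totals, and all genes numbered 1233 upward (679 with TMM) and 229 downward (534 with TMM) with CD8 marker scaling. Members past 2-fold numbered 0 higher in IPF-LC and 1 higher in LC with a minimum of 50 CPM, which S100a4 does not reach. They numbered 1 higher in LC with TPM and with CD8 marker scaling. At 1.5-fold there were 2 higher in IPF-LC, 4 higher in LC, 6 lower in IPF-LC over LC with isotype antibody and 4 lower after depletion. With whole intervals beyond 2-fold, 1 member was lower in IPF-LC over LC with isotype antibody.

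Counts of all genes past 2-fold follow the minimum and the rule by construction. Higher and lower genes for depletion in IPF-LC (344 and 508) numbered 1081 and 1665 at 1 CPM, 118 and 66 at 50 CPM, 1097 and 1262 at 1.5-fold, and 207 and 325 with whole intervals. For depletion in LC (218 and 493) they numbered 714 and 1889, 67 and 70, 783 and 929, and 133 higher with whole intervals. For IPF-LC over LC with isotype antibody (161 and 346) they numbered 651 and 1427, 27 and 48, 712 and 856, and 59 higher with whole intervals. For IPF-LC over LC after depletion (278 and 217) they numbered 1173 and 931, 32 and 11, 771 and 725, and 176 and 102. CD8 marker scaling gave 528 higher for depletion in IPF-LC, 134 higher in LC, and 52 higher and 557 lower for IPF-LC over LC with isotype antibody. For the antibody term, DESeq2 called 100 genes higher and 381 lower and edgeR with a minimum mean of 10 CPM called 39 and 95, with 1 member (Anxa1) in each, whereas limma-voom, edgeR with DESeq2 size factors and edgeR without a filter called 0. Unadjusted, edgeR had a p under 0.05 for 409 higher and 896 lower genes. For the model term DESeq2 called 5 genes lower. The causes of these changes were not tested. No paired analysis was possible because the groups share fewer than 2 replicate numbers, so no replicate block could be fitted; the additive model has the model as a term. Depth limits S100a4 most, at 78 counts in isotype IPF-LC cells.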

Other observations

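Of 19 family genes below the 10 CPM minimum, 10 had a count in any library. In IPF-LC 7 of the 10 had fewer counts after depletion, 2 more and 1 as many, and in LC 9 had fewer and 1 more. The share of all low-level genes with fewer counts was not counted, so this tally has no baseline. Genes detected numbered 15183 in CD4-depleted and 15321 in isotype IPF-LC cells, and 14657 in CD4-depleted and 16415 in isotype LC cells. Over all genes averaging 1 CPM or more, those past 2-fold were also more often lower than higher after depletion in both models. Lgals4 had 72 counts in CD4-depleted IPF-LC cells and 78 in isotype IPF-LC cells, and 73 in CD4-depleted LC cells and 98 in isotype LC cells. More counts after depletion were found for S100a3 (4 against 0 in isotype cells) and S100z (2 against 0) in IPF-LC and for Lgals7 (6 against 0) in LC. S100a8 and S100a9, the calprotectin genes of neutrophils, had 0 and 5 counts in CD4-depleted IPF-LC cells, 24 and 30 in isotype IPF-LC cells, 0 and 0 in CD4-depleted LC cells and 245 and 297 in isotype LC cells. S100a1 had 68 counts in CD4-depleted IPF-LC cells and 154 in isotype IPF-LC cells, and 17 in CD4-depleted LC cells and 142 in isotype LC cells. S100a16 had 4 counts in CD4-depleted IPF-LC cells and 80 in isotype IPF-LC cells, and 1 in CD4-depleted LC cells and 39 in isotype LC cells.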
